A study of Homo sapiens with 6 samples.

Results

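The mevalonate pathway genes described here are ACAT2, HMGCS1, MVK, PMVK, MVD, IDI1 and FDPS, 7 of the 19987 protein-coding genes examined for peaks of a tagged TAF2. They were taken as a fixed list of enzymes on the route to farnesyl diphosphate. A peak was assigned to a gene when it overlapped the annotated GRCh38 span of the gene or the 1000 bp on either side of it. The peaks came from chromatin immunoprecipitation and sequencing (ChIP-seq) of HepG2-TAF2-V5, a clone of the established human liver cancer line HepG2 that carries TAF2 with a V5 peptide tag. The V5 antibody gave 3 libraries, each with its own peak list, and the 3 control libraries, labelled input in one field and IgG in another, had no peak list analysed here. All libraries came from the tagged clone, and no line without the tag was analysed here, so the values below were not set against controls here. Whether the authors' caller used the control libraries is unknown here. The labels do not say if the replicates were separate cultures. The files hold peaks and no expression values, so the labelled cell type was not checked against marker genes.

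The mevalonate pathway builds isoprenoid units from acetyl-CoA in the cytosol and the endoplasmic reticulum. ACAT2, a cytosolic thiolase, condenses acetyl-CoA to acetoacetyl-CoA, and HMGCS1 adds a further acetyl group to make HMG-CoA, which is reduced to mevalonate. MVK and PMVK phosphorylate mevalonate in turn, MVD decarboxylates the product to isopentenyl diphosphate, IDI1 interconverts that with its isomer, and FDPS joins the units to farnesyl diphosphate, the branch point to sterols, ubiquinone, dolichol and protein prenylation. In hepatocytes the genes of this route are known targets of SREBP-2, a transcription factor released from the endoplasmic reticulum when sterols are scarce, which acts at promoters together with NF-Y and Sp1. TAF2 is a subunit of TFIID, the complex that recognises core promoters ahead of RNA polymerase II.

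The sequences before the starts of the genes are shown first, because the peaks lay there. Each run is the 250 bases that precede an annotated transcription start, read 5′ to 3′ on the strand of the gene, from the RefSeq promoter table (GRCh38.p14), in which 6 of the 7 genes had an entry. ACAT2 had none. Capitals mark the letters CCAAT or their reverse complement ATTGG, the core of the box bound by NF-Y. For IDI1, the start whose upstream bases held the summits of all 3 libraries was chosen. The window of HMGCS1 is chr5:43313413-43313662 (minus strand), that of MVK chr12:109573544-109573793 (plus), that of PMVK chr1:154936720-154936969 (minus), that of MVD chr16:88663092-88663341 (minus), that of IDI1 chr10:1048887-1049136 (minus) and that of FDPS chr1:155308616-155308865 (plus).
HMGCS1: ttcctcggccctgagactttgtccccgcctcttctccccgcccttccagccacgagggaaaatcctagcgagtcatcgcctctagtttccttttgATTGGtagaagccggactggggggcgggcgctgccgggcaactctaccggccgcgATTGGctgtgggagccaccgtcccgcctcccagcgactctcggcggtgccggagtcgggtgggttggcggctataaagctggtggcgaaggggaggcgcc
MVK: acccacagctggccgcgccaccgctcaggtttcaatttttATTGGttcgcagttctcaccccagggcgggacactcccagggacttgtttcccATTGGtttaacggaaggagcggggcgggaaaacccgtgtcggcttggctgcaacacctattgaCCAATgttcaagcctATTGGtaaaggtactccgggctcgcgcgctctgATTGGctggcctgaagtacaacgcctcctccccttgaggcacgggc
PMVK: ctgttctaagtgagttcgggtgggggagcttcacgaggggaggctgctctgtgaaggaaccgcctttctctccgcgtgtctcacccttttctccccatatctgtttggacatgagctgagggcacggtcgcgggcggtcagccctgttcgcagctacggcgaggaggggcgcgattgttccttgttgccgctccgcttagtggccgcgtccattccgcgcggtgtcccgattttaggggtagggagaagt
MVD: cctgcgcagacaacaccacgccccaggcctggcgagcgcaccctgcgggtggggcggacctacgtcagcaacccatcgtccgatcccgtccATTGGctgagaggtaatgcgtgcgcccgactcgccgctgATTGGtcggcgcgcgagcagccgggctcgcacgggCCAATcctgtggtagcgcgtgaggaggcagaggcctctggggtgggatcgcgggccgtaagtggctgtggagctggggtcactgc
IDI1: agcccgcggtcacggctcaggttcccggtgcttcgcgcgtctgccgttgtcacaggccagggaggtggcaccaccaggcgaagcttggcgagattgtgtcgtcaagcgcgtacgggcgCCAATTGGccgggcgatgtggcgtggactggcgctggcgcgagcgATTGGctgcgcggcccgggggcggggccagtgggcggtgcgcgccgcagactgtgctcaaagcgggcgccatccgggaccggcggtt
FDPS: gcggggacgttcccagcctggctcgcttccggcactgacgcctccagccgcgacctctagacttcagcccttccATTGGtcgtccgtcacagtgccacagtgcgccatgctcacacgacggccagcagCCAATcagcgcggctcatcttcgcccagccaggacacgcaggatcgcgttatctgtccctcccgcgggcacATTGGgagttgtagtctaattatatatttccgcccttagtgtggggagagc

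Peaks of tagged TAF2 were present at 6 of the 7 genes, each in at least 2 libraries, against 3.76% of all protein-coding genes. PMVK was the exception, with no peak in any list. HMGCS1, IDI1 and FDPS had a peak in 3 libraries, a state shared by 1.9% of protein-coding genes, while ACAT2, MVK and MVD had a peak in replicates 1 and 3 and none in replicate 2. A peak in any library was found at the same 6 genes, against 8.67% of all protein-coding genes. By library, 6 of the 7 genes had a peak in replicate 1, 3 in replicate 2 and 6 in replicate 3, against 3.7, 5.75 and 4.87% of protein-coding genes. Replicate 2 thus held the fewest of these genes although its list was the longest. In all, 1599 peaks were listed for replicate 1, 2557 for replicate 2 and 1887 for replicate 3. The genes span 11152 to 25943 bp, and of the 4207 protein-coding genes with spans in that range 3.09% had a peak in at least 2 libraries. The genes were chosen with results of these data known, so no test of the list was made. The count of 6 rested on replicates 1 and 3 together, since it was 3 without replicate 1 and 3 without replicate 3. The share of 3.76% was taken over all 3 lists and does not apply to these reduced counts.

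**Figure D1:**
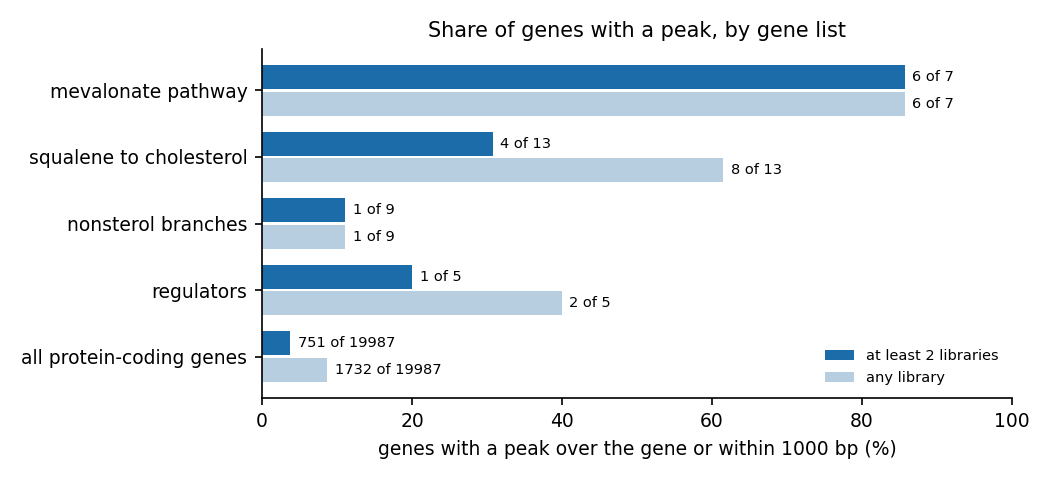
Share of genes (horizontal axis, %) with a peak on the span or its 1000 bp flanks, in at least 2 V5 libraries (dark bars) or in any (light bars), for the mevalonate pathway genes, the other gene lists and all protein-coding genes. The counts stand beside the bars, with 6 of 7 mevalonate pathway genes against 751 of 19987 protein-coding genes in at least 2 libraries.

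The 15 peaks at these genes lay near annotated transcription starts. Their widths ran from 180 bp at ACAT2 to 327 bp at IDI1, beside list medians of 220 to 224 bp, and each gene had at most 1 peak per library. At each of the 6 genes the peaks of different libraries overlapped, by at least 83.3% of the shorter peak. Summits of the same gene lay 20, 92 and 47 bp apart at HMGCS1, IDI1 and FDPS, which had peaks in 3 libraries. They lay 31, 32 and 31 bp apart at ACAT2, MVK and MVD, which had peaks in 2. In regions with exactly 1 peak from each of 3 libraries, of which there were 556, the median distance between the outermost summits was 66 bp. In the 736 regions with exactly 1 peak from each of 2 libraries it was 46.5 bp. A summit within 1000 bp of a start was present in at least 2 libraries at 6 of the 7 genes, against 1.32% of the 15814 protein-coding genes with a start to measure from, and in 3 libraries at 3 genes, against 0.512%. In any library it was present at the same 6 genes, against 3.96%. For ACAT2 the annotated ends of the span stood in for the start. With a window of 250 bp around the start, 3 genes met the rule, because the summits at HMGCS1 and ACAT2 and that at MVK in replicate 1 lay farther out. The share of all protein-coding genes in that narrower window is not given.

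**Figure D2:**
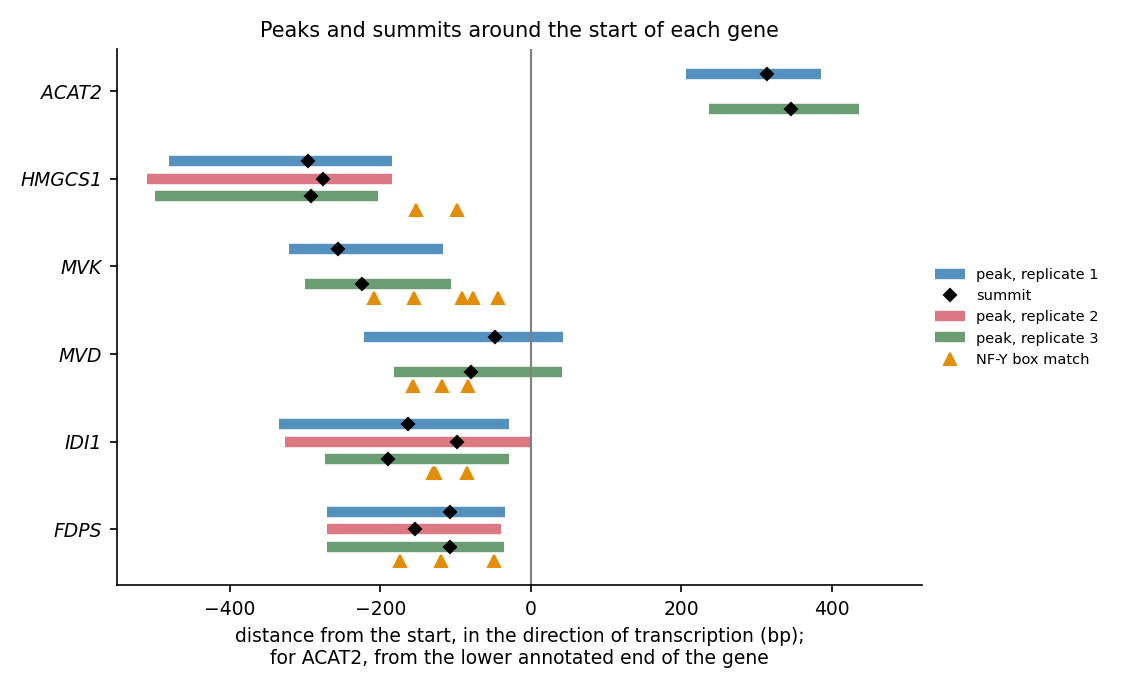
Peaks (coloured bars, by replicate) and summits (black diamonds) at the 6 genes with peaks, by distance in bp from the start in the direction of transcription, or for ACAT2 from the lower annotated end of the gene. Orange triangles mark the NF-Y box letters in the 250 bases before the start. Summits at HMGCS1, MVK, MVD, IDI1 and FDPS lay before the start drawn, and the NF-Y boxes of HMGCS1 lay between its peaks and its start.

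The strength of a peak is given as the authors' fold enrichment over the background of their caller, and as its percentile among all peaks of its own list, where 100 is the strongest. The folds are the authors' values and serve only to rank peaks within a list. The first gene of the route, ACAT2 (chromosome 6, 159762045 to 159779112), had peaks of fold 4.22 in replicate 1 and 7.25 in replicate 3, at the percentiles 24.2 and 89.7. The gene therefore ranked low in one library and high in the other, and its mean percentile of 57.0 ± 46.3 (SD, n = 2) had the widest spread among these genes. The summits lay 314 and 345 bp inside the lower annotated end of the span. They also lay 78 and 109 bp in front of a start of SOD2, the mitochondrial superoxide dismutase gene, which is read from the minus strand, and that start fell within both peaks, as did the start of the noncoding RNA gene SOD2-OT1. In replicate 2 the nearest peak was 10488 bp from the span of ACAT2.

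HMGCS1 had the strongest peak of the 7 genes in each library. Its folds were 11.0, 18.4 and 13.9 in replicates 1, 2 and 3, which placed it 16th of 1599, 6th of 2557 and 9th of 1887 peaks. Among peaks with the summit within 1000 bp of the start of a protein-coding gene it ranked 6th of 207, 4th of 322 and 4th of 381. The mean percentile was 99.5 ± 0.38 (SD, n = 3), the narrowest spread among the 6 genes. The peak (chromosome 5, 43313597 to 43313922 over the 3 libraries) did not reach the first annotated start at 43313412. Its near edge lay at -185, -185 and -203 bp from that start and its summits at -296, -276 and -292 bp, so it covered no more than 66 of the bases printed above. A second annotated start lies downstream at 43313181, with the summits at -527, -507 and -523 bp from it. This was the member peak that lay farthest outside a gene span, and no other peak of any list came within 440 kb of the gene.

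MVK, mevalonate kinase, had peaks of fold 7.57 and 5.56 in replicates 1 and 3, at percentiles 92.6 and 66.3 (mean 79.4 ± 18.6, SD, n = 2). The peaks (chromosome 12, 109573473 to 109573688) had their summits at -256 and -224 bp from the start of MVK in the promoter table. The annotated span of this plus-strand gene begins farther upstream, at 109573272, and the summits lay 266 and 298 bp inside it. The peaks contained the start of MMAB, a gene of vitamin B12 metabolism transcribed away from MVK, in both libraries. The summits lay 34 and 66 bp in front of that MMAB start, nearer to it than to the start of MVK, so the peak cannot be assigned to either gene. In replicate 2 the nearest peak lay 144 kb away.

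PMVK, phosphomevalonate kinase (chromosome 1, 154924740 to 154942658), had no peak. The nearest peaks lay 366, 30.1 and 61.2 kb from its span in replicates 1, 2 and 3. In replicate 1 that nearest peak was the one at FDPS on the same chromosome. The lists carry no read counts, so the depth is unknown and a gene without a peak is one not called at the authors' threshold.

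MVD, mevalonate diphosphate decarboxylase, had the lowest mean rank among the 6 genes with peaks. Their folds were 4.92 in replicate 1 and 3.78 in replicate 3, at percentiles 47.7 and 9.27 (mean 28.5 ± 27.2, SD, n = 2). Ranked by −log10 q instead, the mean was 44.1. By position the peak was among those closest to a start, with summits at -48 and -79 bp, and it contained the annotated start in both libraries (chromosome 16, 88663048 to 88663312, start at 88663091). The divergent noncoding RNA gene SNAI3-AS1 begins 203 to 234 bp beyond the summits and outside the peaks. In replicate 3 the −log10 q of the peak was 2.99, and MVD is the gene lost from the count of 6 when a −log10 q of at least 3 was required.

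IDI1, isopentenyl diphosphate isomerase, had folds of 8.12, 6.16 and 6.94 in replicates 1, 2 and 3. Their percentiles were 94.5, 72.5 and 87.7, with a mean of 84.9 ± 11.2 (SD, n = 3), second to HMGCS1 among the 6 genes. The peak (chromosome 10, 1048887 to 1049220) lay inside the annotated span, well away from its upper end at 1056704, from which the summits were 7628 to 7720 bp. It lay instead at 2 further starts of the gene, at 1048886 and 1049119. The start at 1049119 was inside the peak of each library, with summits at 70, 135 and 43 bp downstream of it. From the start at 1048886 the summits were at -163, -98 and -190 bp. The summits of IDI1 were the most scattered, 92 bp apart.

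FDPS, farnesyl diphosphate synthase, ranked most alike across libraries after HMGCS1. Its folds were 6.21, 6.82 and 6.07 in replicates 1, 2 and 3, at percentiles 79.1, 82.1 and 76.8 (mean 79.3 ± 2.68, SD, n = 3). By −log10 q its mean percentile was higher, at 91.6. The peak (chromosome 1, 155308595 to 155308832) began at the same base in 3 libraries and ended 6 bp apart at most. Of the 556 regions with 1 peak of each library, 7 (1.26%) had the same first base in 3 libraries. The summits lay at -107, -154 and -107 bp from the start at 155308866, which was 34 to 40 bp beyond the edge of the peak. The upper annotated end of PKLR, the pyruvate kinase gene of liver and red cells, falls at 155308654 within the same peak. PKLR is read from the minus strand, so that end is the 5′ end of its annotated span. In each library it lay nearer to the summit (155308759, 155308712 and 155308759) than the start of FDPS did. The peak therefore cannot be assigned to either gene by position. The starts listed for PKLR in the promoter table lay 7274 bp or more from the summits. The annotation names 10 pseudogenes of FDPS and 3 of IDI1, and none of them held a peak. How the authors treated reads that match several places is not given in the labels.

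**Figure D3:**
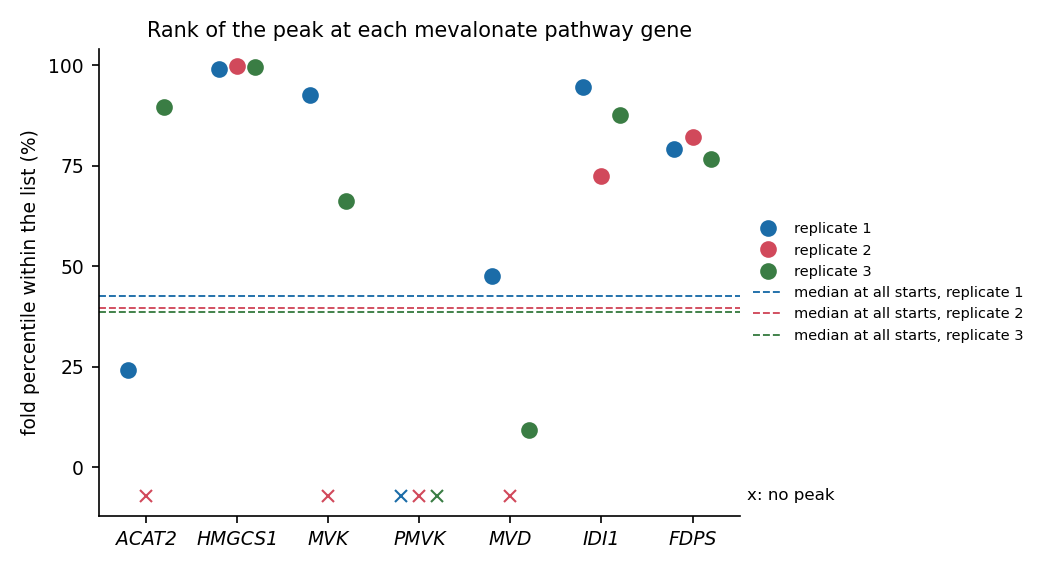
Percentile of the fold of the peak at each gene among all peaks of the same V5 library (vertical axis, %; 100 is the strongest), in route order from ACAT2 to FDPS, with 1 point per replicate and a cross where a library had no peak. Dashed lines give the median percentile of all peaks with the summit within 1000 bp of a protein-coding start (42.6, 39.6 and 38.6 in replicates 1, 2 and 3), and 13 of the 15 points lie above them.

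In rank most of the member peaks stood above the median peak at a start, a difference that was not tested. The median percentile of the member peaks was 85.8, 82.1 and 82.2 in replicates 1, 2 and 3, against 42.6, 39.6 and 38.6 for all peaks at starts of protein-coding genes. The exceptions were ACAT2 in replicate 1 and MVD in replicate 3, which ranked below those medians. The order of the genes by mean percentile was HMGCS1, IDI1, MVK, FDPS, ACAT2 and MVD. HMGCS1 did not overlap any other member in any library. IDI1, MVK and FDPS did not differ beyond their spread, with mean percentiles between 79.3 and 84.9, and the ranges of ACAT2 and MVD over libraries overlapped each other. For the 5 genes with peaks and an entry in the promoter table, summits lay 43 to 296 bp from the nearest start of the same gene, and 11 of 13 lay before it. Over all peaks at starts the distance was taken to the nearest start of any protein-coding gene, which is a different measure. Its median was 191, 165.5 and 134 bp in replicates 1, 2 and 3, and 62.8, 70.8 and 68.5% of summits lay before that start. By that measure the summits at MVK lay 34 and 66 bp from the start of MMAB. Those at ACAT2 lay 78 and 109 bp from a start of SOD2. The summits of HMGCS1, at 276 to 296 bp, lay beyond the median distance in each library. These positions were not compared by a test.

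The NF-Y box letters were a feature shared by the 5 genes with both a peak and an entry in the promoter table. The 6 listed genes had 9 starts and hence 9 windows of 250 bases. Peaks of at least 2 libraries touched 6 of these windows, which belong to 5 genes, since 2 overlapping windows of IDI1 count separately. Each of the 6 held CCAAT on either strand at 2 or more places. Both matches in the IDI1 window before 1049119 lay inside no peak. The 3 untouched windows held none (the printed window of PMVK, that of the upper start of IDI1 and that of the downstream start of HMGCS1). The listed start of PMVK, at 154936719, lies inside its annotated span, which ends at 154942658. PMVK is read from the minus strand, so that end is the 5′ end, and the bases before it were not searched. Among windows of all protein-coding genes touched by peaks of at least 2 libraries, with the 6 above included, 31 of 142 (21.8%) held 2 or more. Among all 22035 windows of protein-coding genes 10.5% did. MVK held 5, a number reached exactly by 0.245% of all windows and by 2 of the 142 touched windows (1.41%), that of MVK included. MVD, FDPS and the printed window of IDI1 held 3 each, with a pair in IDI1 that overlaps in the palindrome CCAATTGG, and HMGCS1 held 2. Of the 18 matches in the touched windows, 11 lay inside every peak of their gene and 7 inside none. At FDPS the matches began 176, 122 and 51 bases before the start, and the middle one lay 13 to 34 bp from the summits. At MVD a match lay 4 and 35 bp from the summits. At HMGCS1 both matches lay outside the peaks, 123 to 198 bp from the summits. A match is a run of letters and not a measured binding site, and the letters were searched with the peaks of these genes known.

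**Figure D4:**
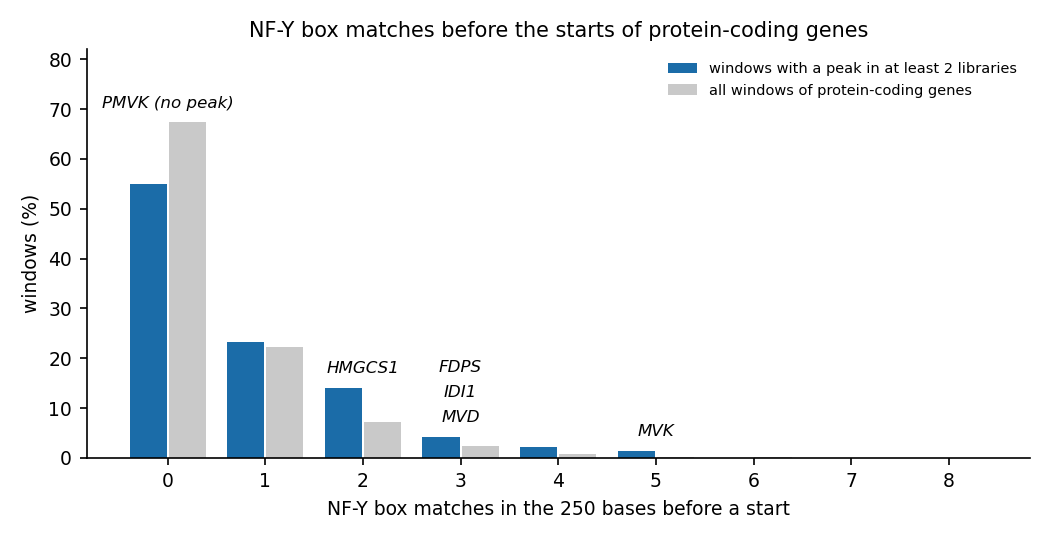
Share of windows (vertical axis, %) by the number of NF-Y box matches in the 250 bases before a start, for windows touched by peaks of at least 2 V5 libraries (dark bars, 142 windows) and all windows of protein-coding genes (grey bars, 22035 windows). Names mark the printed windows, with MVK at 5 matches, FDPS, IDI1 and MVD at 3, HMGCS1 at 2 and PMVK, which had no peak, at 0.

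Of the other letters searched on both strands, TCACNCCAC, the core of the sterol regulatory element, was in 0 of the 9 windows, against 0.885% of all windows. With so low a share, a count of 0 in 9 windows says little. Only these exact letters were searched, so the count does not show that the element is absent. The GC box GGGCGG, bound by Sp1 and its relatives, was in 9 of 9 windows, against 74.6% of windows touched by peaks of at least 2 libraries and 53.7% of all windows. The window of PMVK, which had no peak, held it too. The TATA box letters TATAAA were in 1 of the 9 windows, against 9.03%, and that match began 29 bases before the first start of HMGCS1, where it is seen in lower case in the sequence above. The windows of the genes ranged from 58.4% G and C at MVK to 74.0% at the upper start of IDI1, beside a median of 62.0% over all windows.

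The other genes of the pathway and its branches were counted by the same rule. Of 13 genes from squalene to cholesterol, 4 had a peak in at least 2 libraries and 8 in any library. FDFT1, squalene synthase, and SQLE, squalene epoxidase, ranked beside HMGCS1, with mean percentiles of 99.5 ± 0.155 and 98.0 ± 1.29 (SD, n = 3). MSMO1, a sterol C4-methyl oxidase, had folds of 7.2, 8.94 and 5.71 (mean percentile 85.1 ± 13.5, n = 3), with its strongest peak before the start in each library. LSS, lanosterol synthase, had folds of 4.92 and 5.65 in replicates 2 and 3. LSS therefore had a peak in replicate 2, the library in which ACAT2, MVK and MVD had none. Of 9 genes on the nonsterol branches, GGPS1, geranylgeranyl diphosphate synthase, alone had a peak in at least 2 libraries, with folds of 5.01 and 4.95 in replicates 1 and 3 and summits 429 and 475 bp before a start. Of 5 regulators, SREBF2, which encodes SREBP-2, alone had a peak in at least 2 libraries, with folds of 14.8, 13.9 and 12.2 and a mean percentile of 99.5 ± 0.11 (SD, n = 3). The background for these counts is the same 3.76% of protein-coding genes in at least 2 libraries and 8.67% in any library. Whether the lists differ from each other was not tested.

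In these other lists the picture from the NF-Y letters depended on the number of matches counted. At least 1 match was held by 4 of their 4 genes with peaks in at least 2 libraries and a promoter entry, and by 10 of their 19 genes with a peak in 1 library or none. With 2 or more matches the counts were 1 of 4 (MSMO1, with 4 matches) and 4 of 19, among them NSDHL with 5 and EBP with 3, neither of which had a peak. Those counts take the window with the most matches for each gene. By the same count, of 15713 protein-coding genes with a window, 6320 held at least 1 match and 13.7% held 2 or more. The sterol regulatory element core was in the window of SREBF2 and of no other gene in the lists.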

How the data were processed

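Peak lists of 3 V5 ChIP-seq libraries were used, on GRCh38 per the submitters' processing notes. The aligner, caller, threshold and control behind the lists are unknown here. The deposited fold is each peak's ratio over the background of the authors' caller. The deposited −log10 q of a peak was used for filters and a second ranking, and the deposited −log10 p was not used. The deposited score, the whole part of 10 times the −log10 q, was left out. Summits are the deposited offsets added to the peak start. Depth is unknown.

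Spans came from RefSeq GRCh38.p14, starts and sequences from the RefSeq promoter table of the same build. An overlap of 1 bp counted. Percentiles used average ranks for ties. Motif letters were counted on either strand in the 250 bases before each distinct start, overlaps included. No test was made, since there is 1 group with peak lists. The code was checked on simulated peaks.

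The genes, lists and motifs were chosen with earlier results of these data known. Named genes were the 7 genes, up to 4 genes per list with peaks in at least 2 libraries, and genes sharing a peak. NSDHL and EBP were named after their values were seen. 1 planned gene list is not reported here. Alternatives covered q and fold thresholds, windows, summits, ranking, overlap and each replicate left out. Calculations used Python 3.11.15, numpy 2.4.6, pandas 2.3.3 and matplotlib 3.10.9.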

Additional observations from a re-analysis of the deposited data

How the results depend on the processing

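Without each V5 replicate in turn, the number of mevalonate pathway genes with a peak in at least 2 libraries ran from 3 to 6, and so did the number with a summit at the start. Both were 3 without replicate 1 and without replicate 3, because ACAT2, MVK and MVD then had a peak in a single library, and 6 without replicate 2. The median over genes of the mean fold percentile was 79.4 and ran from 78.7 to 82.1 over the same settings, and it was 77.0 when peaks were ranked by −log10 q. Without a flank around the gene span, 1 gene had a peak in 3 libraries, because the peaks of HMGCS1 and FDPS lie outside their spans. With a window of 250 bp around the start, 3 genes had a summit there in at least 2 libraries. With −log10 q of at least 3, −log10 q of at least 5 or a fold of at least 5, the number of genes with peaks in at least 2 libraries was 5, 4 and 4. The number with peaks in any library was 6 in each setting except a fold of at least 5, where it was 5, and the gene span alone, where it was 4. No share of all protein-coding genes is given for these changed settings. The shares stated earlier apply to the main settings only. No paired analysis was possible because the control samples that share replicate numbers with the V5 samples had no file to analyse here. The depth of the libraries is unknown, so an absent peak says only that none was called.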

Other observations

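The RefSeq annotation places a start of the noncoding RNA gene SOD2-OT1 27 to 58 bp from the summits assigned to ACAT2, nearer than any other start listed there. The peak of GGPS1 lay outside each of the windows of 250 bases before its 3 listed starts, and none of its peaks ranked above percentile 49.8.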
